A study of Mus musculus with 4 samples.

Results

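The barcodes described here are those of mouse kidney libraries that carried kidney tubule transcripts and few endothelial ones, and they were compared between angiotensin II hypertension and control. A barcode entered when Pecam1, Cdh5, Kdr and Tie1, genes of endothelial cells, together made up fewer than 12 per 10000 of its unique molecular identifiers (UMIs, each standing for 1 captured transcript). It also had to hold at least 3 UMIs of Slc34a1, Lrp2, Slc12a1 and Slc12a3, which encode a phosphate transporter and an endocytic receptor of the proximal tubule and the salt cotransporters of the thick ascending limb and the distal convoluted tubule. The rule found 4495 tubule barcodes among the 7251 barcodes of the angiotensin II library and the control libraries. The whole series holds 10535 barcodes. Barcodes were thus chosen by the measured UMIs of these 8 genes, and the genes named below as higher or lower were chosen by the ratios printed for them, so those ratios are descriptions.

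The study's question was about lymphatic endothelium of the hypertensive kidney. All mice were C57BL/6J, aged 10 to 14 weeks, and each of the 4 groups is a single library made from the pooled kidneys of its mice. The groups were angiotensin II-induced hypertension (A2 HTN), its saline control (A2 Ctrl), salt-sensitive hypertension (SS HTN) and its control on a normal diet (SS Ctrl). Dissociated cells of every group were selected with antibodies to CD31, the protein of Pecam1, and then to podoplanin, so tubule barcodes are not what the selection was aimed at. Both controls sit in 1 table, where the barcode ending separates control library 1 from control library 2. The labels do not say which of them is the saline control, so each was set against the angiotensin II library on its own and a gene was counted only where both comparisons pointed the same way. Without replicates no difference could be tested, and every interval given covers counting error only.

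The proximal tubule reclaims most of the filtered sodium, glucose, phosphate and amino acids, and it detoxifies drugs and metabolites through organic anion transporters and conjugating enzymes. The thick ascending limb and the distal convoluted tubule reabsorb further salt through Slc12a1 and Slc12a3. Angiotensin II acts on type 1 receptors on tubule cells and raises their sodium reabsorption, besides constricting vessels.

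The angiotensin II library gave 1114 tubule barcodes, 39.3% of its barcodes (95% exact binomial interval 37.5 to 41.1). Control library 1 gave 2094 (87.0%, 85.6 to 88.3) and control library 2 gave 1287 (64.1%, 62.0 to 66.2). The salt-sensitive library, used below as a level beside each gene, gave 1240 (37.8%). Median UMIs per tubule barcode were 1037.5 in the angiotensin II library, 1048 in control library 1, 577 in control library 2 and 1171 in the salt-sensitive library. Summed over tubule barcodes and the 11049 genes listed in every library's table, depth was 1444128, 2527468, 969177 and 1909083 UMIs in the same order. No 2 of the libraries shared more than 2 barcode sequences. Just inside the rule lay 140, 122 and 174 barcodes with exactly 3 tubule UMIs in the angiotensin II library, control library 1 and control library 2, and just outside lay 115, 86 and 201 with 2 such UMIs. On the endothelial side, 191, 201 and 67 tubule barcodes had a rate of 6 to 12 per 10000, while 77, 87 and 39 barcodes with 3 or more tubule UMIs had a rate of 12 to 18.

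Markers that played no part in the rule fitted kidney tubule. Kap, an abundant androgen-regulated transcript of the proximal tubule, stood at 2838, 2245 and 3230 CPM (UMIs scaled to a common total per library) in tubule barcodes of the angiotensin II library, control library 1 and control library 2. It stood at 74.0 CPM in the endothelial barcodes of the angiotensin II library, which are the 1211 barcodes at or above the endothelial rate with fewer than 3 tubule UMIs. Thick ascending limb markers other than Slc12a1 summed to 1149, 1382 and 1446 CPM in tubule barcodes, in the same order. Distal convoluted tubule markers other than Slc12a3 summed to 481, 582 and 836 CPM. In the angiotensin II endothelial barcodes these lists summed to 46.3 and 40.8 CPM, with Slc12a1 and Slc12a3 included. The barcodes did not sort into nephron segments, however. In the angiotensin II library 71.0% of tubule barcodes held both proximal and distal UMIs of the 4 tubule genes, against 94.6% in control library 1 and 82.6% in control library 2. Barcodes with at least 3 proximal and no distal UMIs numbered 298 (26.8%), 87 (4.15%) and 189 (14.7%). They are therefore called tubule barcodes, with no segment name.

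**Figure D1:**
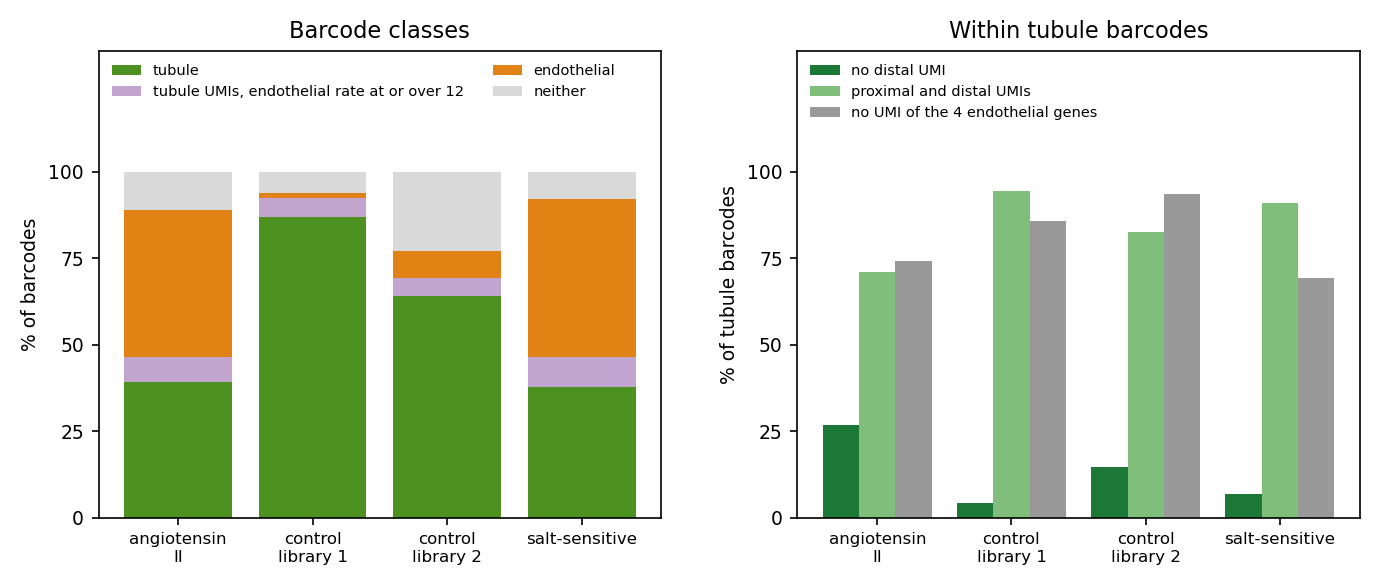
Left, the share of each library's barcodes (%) that were tubule barcodes, held tubule UMIs at an endothelial rate at or over 12 per 10000, were endothelial, or were neither. Right, the share of tubule barcodes (%) without a distal UMI, with proximal and distal UMIs, and without a UMI of the 4 endothelial genes; 74.1% of angiotensin II tubule barcodes lacked such a UMI, against 85.9% and 93.6% in the controls.

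Endothelial transcripts were more abundant in the tubule barcodes of the angiotensin II library than in those of either control. Of the 16 endothelial markers listed that the barcode rule did not use, all 16 lay above both controls and 8 passed the 2-fold rule defined below. Their summed level was 2705 CPM, against 1103 and 1161 CPM in control libraries 1 and 2 and 1973 CPM in the salt-sensitive library. Endothelial barcodes made up 42.7% of the angiotensin II library and 45.7% of the salt-sensitive one, against 1.5% and 7.67% of the control libraries. The 7 podocyte markers summed to 646, 477 and 520 CPM and the 5 mural markers kept summed to 178, 109 and 101 CPM. In the salt-sensitive library these sums were 881 and 119 CPM. The 4 of 11 macrophage markers in the tables summed to 108, 105 and 255 CPM, highest in control library 2. Markers of T and NK cells, B cells, neutrophils and red cells were not among the genes analysed here. The part of endothelial RNA in any single gene's difference was not tested, so each gene below is given with its level in the angiotensin II endothelial barcodes.

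Genes were kept at a mean of at least 10 CPM over the 3 libraries, which left 10235. A gene passed the 2-fold rule where its log2 ratio of CPM + 5 was at least 1, or at most -1, over each control library, and both exact conditional binomial 95% intervals of the plain ratio lay on the same side of 1. By this rule 101 genes (0.987% of those kept) were higher and 15 (0.147%) were lower in the angiotensin II tubule barcodes. Over control library 1 alone 229 genes (2.24%) were higher and 35 (0.342%) lower, and over control library 2 alone 200 (1.95%) were higher and 87 (0.85%) lower. The control libraries themselves differed by the same measure in 117 genes (1.14%), of which 86 (0.84%) were higher in control library 2 and 31 (0.303%) in control library 1. Of the 116 genes past the rule 6 also differed between the controls. The median log2 ratio of all genes kept was -0.01 over control library 1 and 0.01 over control library 2.

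**Figure D2:**
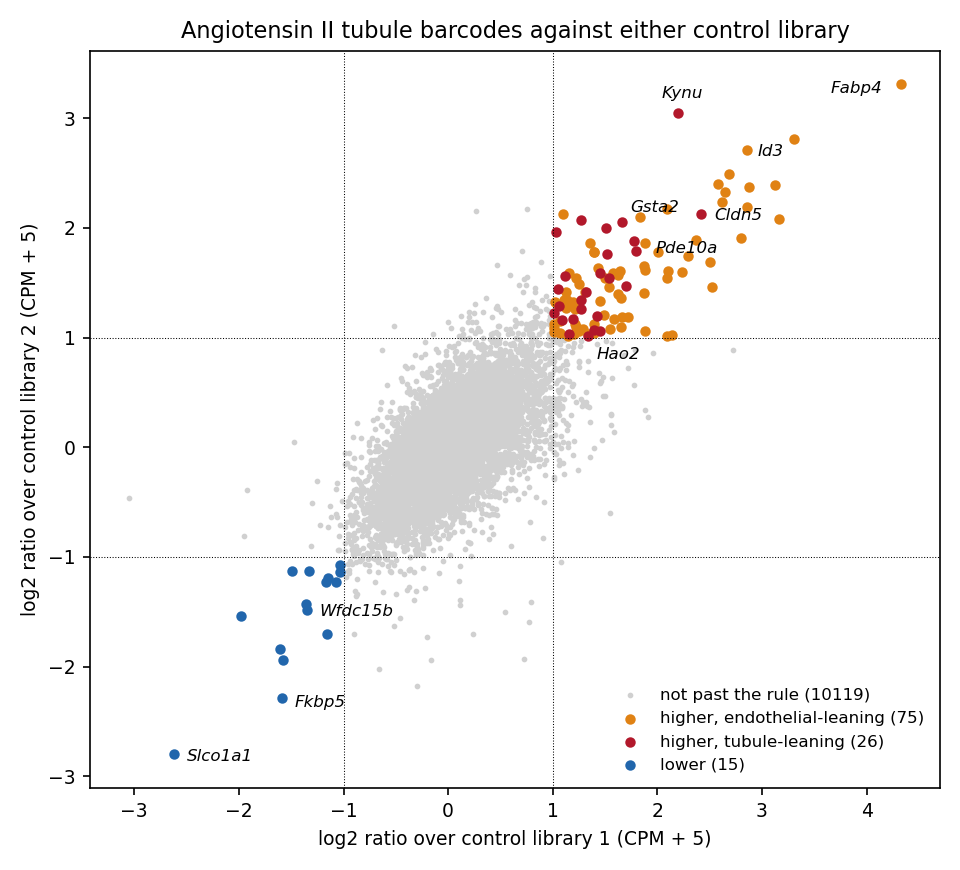
Each point is 1 of 10235 genes, with its log2 ratio over control library 1 (x axis) and over control library 2 (y axis); both axes share the angiotensin II value, so points along the diagonal follow in part from that. Dotted lines mark a 2-fold difference; 101 genes lie past the rule at the upper right and 15 at the lower left.

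The 101 higher genes divided by where else they were found. For 75 of them the level was higher in the endothelial than in the tubule barcodes of the same library, and these made up 1.92% of the 3907 endothelial-leaning genes kept. The other 26 were higher in tubule barcodes and are called tubule-leaning, 0.411% of 6328 such genes. Of the 15 lower genes 13 were tubule-leaning, as were 61.8% of all genes kept. The lower genes made up 0.205% of tubule-leaning and 0.0512% of endothelial-leaning genes. The leaning is set in part by the angiotensin II tubule level, which also enters the ratios. The salt-sensitive level lay above both controls and below angiotensin II for 90 of the 101 higher genes. For 13 of the 15 lower genes it lay below both controls and above angiotensin II. These genes were chosen for extreme angiotensin II levels, so the side on which the salt-sensitive level lay of angiotensin II was in part fixed in advance. The matching shares over all genes kept are not given, so no order of the libraries is read from these counts. The largest ratios belonged to endothelial-leaning genes. Fabp4, a fatty acid binding protein of capillary endothelium, stood at 445 CPM in the angiotensin II tubule barcodes, 17.4 in control library 1, 40.2 in control library 2 and 111 in the salt-sensitive library, and at 8908 CPM in the angiotensin II endothelial barcodes. Its log2 ratios were 4.33 and 3.31. Tm4sf1, Id3, Sox18, Fabp5, Klf2, Gpihbp1, Cavin3, Ramp2, Ifitm3, Tcim, Ly6c1 and Thbd had smaller log2 ratios, all at least 1.91 over either control. In endothelial barcodes the levels of these 13 genes ran from 348 CPM for Thbd to 8908 CPM for Fabp4. More barcodes with endothelial RNA and more of it per barcode cannot be told apart in these sums.

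Among tubule-leaning genes the widest difference was in Kynu, which encodes kynureninase, an enzyme of tryptophan breakdown (chr2:43555329-43682715 of GRCm38, the assembly of mm10). Kynu stood at 96.3 CPM in the angiotensin II tubule barcodes (139 UMIs), 17.0 in control library 1 (43 UMIs), 7.22 in control library 2 (7 UMIs) and 21.5 in the salt-sensitive library. The angiotensin II level was the highest of the 4, and its endothelial barcodes held 1.34 CPM. The log2 ratio of CPM + 5 was 2.20 over control library 1 and 3.05 over control library 2. The 95% intervals of the ratio without the added 5 CPM, also on the log2 scale, were 2.0 to 3.03 and 2.66 to 5.08. Halr1, a long noncoding RNA gene, stood at 81.7 CPM against 20.2 and 18.6 in the controls and 36.1 in the salt-sensitive library, with 1.34 CPM in endothelial barcodes.

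Enzymes were among the tubule-leaning genes past the rule. Gsta2, a glutathione S-transferase, stood at 88.6 CPM, against 24.5 and 17.5 in control libraries 1 and 2 and 37.7 in the salt-sensitive library, with log2 ratios of 1.66 and 2.05. It was the single gene past the rule among 37 kept genes of oxidative stress and glutathione, whose medians were 0.12 and -0.08. Rdh16f2, of the retinol dehydrogenase family, stood at 217 CPM against 73.2, 50.6 and 83.3. Hao2, a peroxisomal 2-hydroxyacid oxidase, stood at 157 CPM against 59.0, 75.3 and 43.5, and its ratio over control library 2, 1.01 on the log2 scale, was close to the limit. Hao2 was alone past the rule among 41 kept genes of fatty acid oxidation and the peroxisome, which had medians of -0.17 and -0.05. Acnat1, an acyltransferase of the peroxisome, stood at 198 CPM against 88.2, 64.0 and 103. None of these 4 genes exceeded 3.43 CPM in the angiotensin II endothelial barcodes. No source used here states the treatment of reads shared with near-identical copies, such as those of the Gsta, Rdh16, Acnat, Slco1a and Lipo families, and their levels are uncertain to that extent.

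Receptor, surface and signalling proteins were also among them. Prlr, the prolactin receptor, stood at 50.5 CPM against 22.2, 9.29 and 22.5. Alpl, an alkaline phosphatase, stood at 215 CPM against 104, 89.8 and 116, with 63.7 in endothelial barcodes. Pde10a, a cyclic nucleotide phosphodiesterase, stood at 265 CPM against 72.4 and 73.3 in the controls and 131 in the salt-sensitive library, with log2 ratios of 1.80 and 1.79. Spsb4, an adaptor of ubiquitin ligases, stood at 161 CPM against 72.8, 69.1 and 78.6.

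A further group of tubule-leaning genes is better known from other kidney cells. Mgp, an inhibitor of calcification made in vessel walls, stood at 321 CPM against 107, 107 and 114. Eln, elastin, stood at 95.6 CPM against 30.1, 24.8 and 32.5, and Acta2, smooth muscle actin, at 51.9 CPM against 18.6, 17.5 and 23. Of the 5 mural markers kept, 4 lay above both controls and 1, Notch3, below both, with medians of 0.37 and 0.63, and Acta2 alone passed the rule. Lmx1b, a transcription factor of podocytes, stood at 65.8 CPM against 21.4 and 25.8 in the controls and 60.8 in the salt-sensitive library. Nphs1, which encodes the podocyte protein nephrin, stood at 36.7 CPM against 34.8, 32.0 and 65.0. Cldn5, a tight junction protein on the endothelial marker list, stood at 98.3 CPM against 14.2, 18.6 and 73.3. Its level in the angiotensin II endothelial barcodes was 70.2 CPM, below that in the tubule barcodes. It thus counted as tubule-leaning although listed as an endothelial marker. Whether vessel wall or podocyte RNA had a part in these genes was not tested.

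The other tubule-leaning genes were Tshz3, Opcml, Ablim3, Gsn, Ddx18, Marveld1 and Ccdc34 and the noncoding genes Gm48099, Gm19951, Gm42047 and 4732463B04Rik. Gm19951, annotated as a long intergenic RNA, had the highest level of the 26, with 1427 CPM against 623, 631 and 744. Gm42047 stood at 235 CPM against 87.0 and 109 in the controls, and at 35.1 CPM in the salt-sensitive library, below both controls. The annotation places 4732463B04Rik antisense to Acot4, and without a stated use of strand in counting their reads cannot be told apart.

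The lower genes were led by Slco1a1 (chr6:141907282-141946962), an organic anion transporter of the proximal tubule known for higher expression in males. Slco1a1 stood at 20.1 CPM in the angiotensin II tubule barcodes (29 UMIs), against 149 in control library 1 (376 UMIs), 170 in control library 2 (165 UMIs) and 98.0 in the salt-sensitive library. Its log2 ratios of CPM + 5 were -2.62 and -2.80, and the intervals of the ratio without the added 5 CPM, on the log2 scale, were -3.49 to -2.34 and -3.71 to -2.51. Its neighbour Slco1a6, of the same family, differed little, with 545, 578 and 636 CPM. Gm20400, annotated antisense to Slco1a6, stood at 63.0 CPM against 264, 193 and 224.

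Fkbp5 (chr17:28399094-28517527), a co-chaperone that binds the glucocorticoid receptor complex and is induced by glucocorticoids, stood at 42.9 CPM against 139 and 229 in the controls and 95.3 in the salt-sensitive library. The log2 ratios were -1.59 and -2.29. Zbtb16, another gene induced by glucocorticoids, stood at 40.9 CPM against 83.1 and 78.4 and did not pass the rule. Tsc22d3, induced by them too, stood at 51.9 CPM against 55.0 and 62.9. Sgk1, a kinase of sodium transport induced by mineralocorticoids and glucocorticoids, was instead higher, with 109 CPM against 37.6, 32.0 and 57.1, but it stood at 1006 CPM in the endothelial barcodes. These were the 2 genes past the rule among 15 kept corticosteroid and sodium response genes, 1 in each direction, and the list's medians were -0.13 and -0.25.

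Of the remaining lower genes, Wfdc15b, a secreted protein gene of the distal nephron, stood at 25.6 CPM against 72.8, 80.5 and 53.4. Slc6a15, a neutral amino acid transporter, stood at 76.9 CPM against 162, 175 and 112. Bcat1, the cytosolic branched-chain aminotransferase, stood at 25.6 CPM against 64.1, 67.1 and 38.8. Cntnap5a, of the neurexin family, stood at 49.2 CPM against 157, 203 and 149. The others were Arhgef19, Vill, Lipo3, Mlst8, Gm15348, Gm32569, Gm26944 and Gm12576. The lowest levels were those of Lipo3, Mlst8 and Gm26944, which rested on 6, 7 and 9 UMIs in the angiotensin II library.

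**Figure D3:**
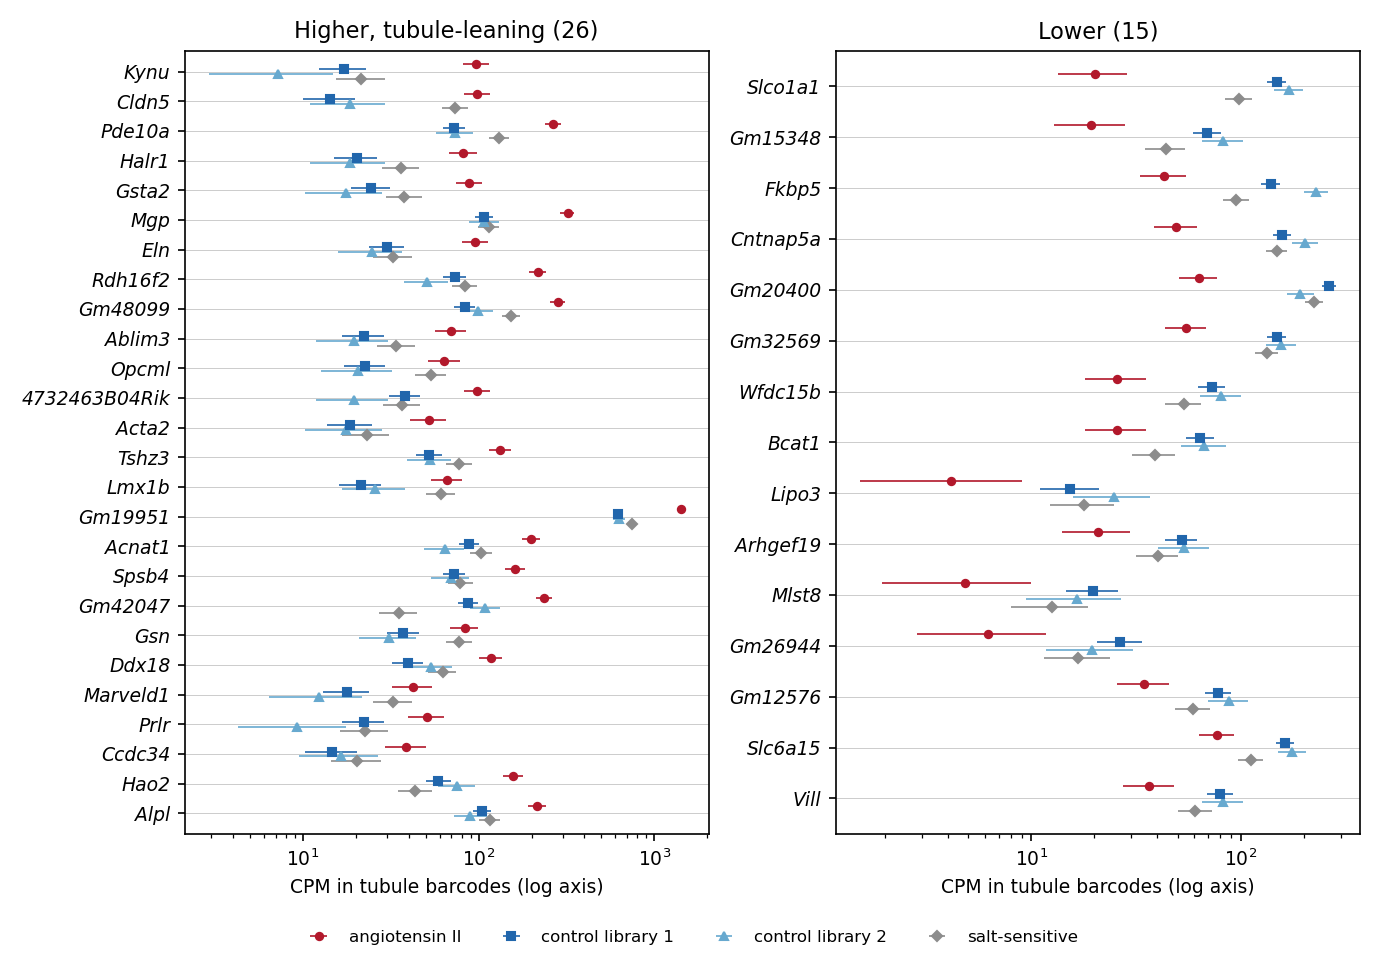
Level in tubule barcodes (CPM, log axis) of the 26 tubule-leaning higher genes and the 15 lower genes in the 4 libraries, with 95% exact Poisson intervals (counting error only). Angiotensin II lies at the right of both controls in the left panel and at the left of both in the right panel, as the rule requires; the salt-sensitive library was not used to choose the genes.

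The promoter windows of a pair of higher and a pair of lower genes, each with a single entry in the table used, are shown because these genes differed with little endothelial RNA (Gsta2, Hao2, Slco1a1) or are hormone-induced (Fkbp5). The windows come from RefSeq (GRCm38.p6), run 250 bases before to 50 after the start, and are read on the gene's strand: Gsta2 is at chr9:78347096-78347395, Hao2 at chr3:98893181-98893480, Slco1a1 at chr6:141946913-141947212 and Fkbp5 at chr17:28486100-28486399, all on the minus strand. The Gsta2 and Fkbp5 windows lie inside the genes as the annotation bounds them, so other starts of these genes are not shown. Capitals mark GTTAAT, a half-site of HNF1 factors of the proximal tubule, on either strand.
Gsta2: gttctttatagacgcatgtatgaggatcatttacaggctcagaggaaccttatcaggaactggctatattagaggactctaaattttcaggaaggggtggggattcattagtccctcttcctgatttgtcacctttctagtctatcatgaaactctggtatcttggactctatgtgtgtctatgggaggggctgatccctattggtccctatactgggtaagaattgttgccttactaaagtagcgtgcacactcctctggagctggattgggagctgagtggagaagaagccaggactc
Hao2: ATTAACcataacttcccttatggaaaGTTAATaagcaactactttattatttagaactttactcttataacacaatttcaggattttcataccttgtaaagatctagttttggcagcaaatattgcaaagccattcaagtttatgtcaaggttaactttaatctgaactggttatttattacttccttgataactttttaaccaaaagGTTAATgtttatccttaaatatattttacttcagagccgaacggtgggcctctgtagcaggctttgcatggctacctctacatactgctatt
Slco1a1: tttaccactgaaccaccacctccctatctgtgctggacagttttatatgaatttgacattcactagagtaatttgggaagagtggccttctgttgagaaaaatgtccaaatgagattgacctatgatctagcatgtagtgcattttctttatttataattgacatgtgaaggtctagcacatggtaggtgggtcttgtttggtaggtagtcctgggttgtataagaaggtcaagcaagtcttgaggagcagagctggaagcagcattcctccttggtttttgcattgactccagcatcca
Fkbp5: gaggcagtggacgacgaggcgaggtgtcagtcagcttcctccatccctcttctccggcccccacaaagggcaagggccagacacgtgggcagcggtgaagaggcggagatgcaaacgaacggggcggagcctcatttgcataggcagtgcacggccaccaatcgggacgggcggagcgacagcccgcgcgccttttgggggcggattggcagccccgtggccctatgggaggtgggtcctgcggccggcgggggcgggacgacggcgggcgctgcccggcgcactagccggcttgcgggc

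GTTAAT occurred 3 times in the Hao2 window, beginning at bases -250, -224 and -42 from the start, and in none of the other 3 windows. It occurs in 7.1% of all 32851 windows in the table. Of the 26 tubule-leaning higher genes 19 had an entry, and of these Hao2 and Alpl held GTTAAT; of the 15 lower genes 11 had an entry, and Gm32569 held it. The steroid receptor half-site AGAACA, present in 19% of all windows, was found in windows of Acta2, Alpl, Prlr and Wfdc15b and in none of the 4 printed. The antioxidant response core TGACNNNGC, present in 12.4%, was found for Alpl, Gm15348 and Vill. All 3 motifs were searched on both strands, and a match describes the letters only.

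The transport genes of the tubule differed modestly. Of 48 kept genes of proximal tubule reabsorption, 21 lay above both controls and 18 below both, and Slco1a1 alone passed the rule. The medians were 0.13 over control library 1 and -0.03 over control library 2. Slc13a1, a sulfate transporter, stood at 940 CPM against 659 and 701, Slc22a30 at 339 against 646 and 654, and Slc22a12, a urate transporter, at 210 against 345 and 344, none past the rule. Slc34a1 and Lrp2 chose the barcodes and are not results.

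Genes of the distal nephron were lower on balance. Of 31 kept, 19 lay below both controls and 8 above both, against 36.8% below and 37.3% above over all genes kept, and the medians were -0.35 and -0.42. Wfdc15b passed the rule downward and Sgk1 upward. Slc8a1, the sodium-calcium exchanger, stood at 1390 CPM against 2302, 2553 and 2875. Egf, made in the thick ascending limb and distal convoluted tubule, stood at 424 CPM against 667 and 654, and Calb1, a calcium-binding protein, at 161 against 245 and 333. Umod, the thick ascending limb protein uromodulin, stood at 213 CPM against 281, 344 and 363. The thick ascending limb markers were not uniformly lower. Of the 4 kept besides Slc12a1, 2 (Egf and Umod) lay below both controls and 2 (Cldn10 and Kcnj1) above both. The share of tubule barcodes with a distal UMI was lower in the angiotensin II library as well (73.2% against 95.8% and 85.3%), and its part in these levels was not tested.

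Genes of the renin-angiotensin system did not pass the rule. Of 12 kept, 7 lay above both controls and 3 below both, against 37.3% above and 36.8% below over all genes kept. The medians were 0.28 and 0.11. Klk1, tissue kallikrein, stood at 456 CPM against 384 and 384, Cltrn, a collectrin that carries amino acid transporters to the surface, at 268 against 163 and 284, Lnpep, an aminopeptidase that cleaves vasopressin and oxytocin, at 133 against 157 and 170, and Ctsa at 118 against 69.6 and 138. Agtr1a, the type 1 angiotensin receptor and named here after its values were seen, stood at 96.3 CPM against 103, 119 and 101.

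Sex-dependent kidney genes lay mostly below the controls. Of 20 kept, 14 lay below both controls and 1 above both, against 36.8% below and 37.3% above over all genes kept. The medians were -0.24 and -0.63. The list mixes genes higher in male and in female kidney, so its counts and medians have no single reading by sex. The medians of the control pair differed by 0.31 in the same list. Slco1a1 passed the rule downward and Prlr, higher in female kidney, upward. Slc22a30 and Slc7a13, both higher in male kidney, were below both controls, Slc7a13 with 267 CPM against 428 and 560, and neither passed the rule. Acsm3 and Odc1 differed mainly from control library 2, at 63.0 CPM against 102 and 270 and at 83.1 CPM against 104 and 214. Kap, at 2838 CPM against 2245 and 3230, lay between the controls.

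Injury, interferon and MHC class I genes were higher on balance, and the 10 of them past the rule were endothelial-leaning. Of 35 kept injury and repair genes 3 passed upward (Vim, S100a6 and S100a10) and 23 lay above both controls, with medians of 0.65 and 0.28. Over all genes kept 0.987% passed upward and 37.3% lay above both. The 15 tubule-leaning injury genes had medians of 0.58 and 0.07, with 8 above both controls and 3 below both. Vim stood at 90.7 CPM against 11.9, 24.8 and 50.8, and at 241 CPM in endothelial barcodes. Among the injury markers in the tables Spp1 stood at 90.7 CPM against 40.4 and 84.6, and Vcam1 at 16.6 against 17.8 and 13.4. Only 38 of the 56 injury and repair genes listed were among the genes analysed here. Havcr1, Lcn2, Krt8, Krt18 and Sox9 were not, so the list says nothing about them. Of 42 kept interferon response genes 5 passed (Bst2, Ifitm2, Ifitm3, Ly6e and Cmpk2), with medians of 0.51 and 0.46, and 41 of the 42 were endothelial-leaning. Of 19 kept genes of MHC class I presentation H2-Q4 and B2m passed, with medians of 0.75 and 0.35, and all 19 were endothelial-leaning.

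Most of the metabolic, stress and clock lists held no gene past the rule. Nuclear oxidative phosphorylation (75 kept) had medians of 0.19 and -0.01, gluconeogenesis and ammoniagenesis (19) -0.01 and 0.02, hypoxia and glycolysis (26) 0.10 and -0.01, and the unfolded protein response (21) -0.02 and -0.06, with no gene past the rule in any of them. Sterol and fatty acid synthesis (23), with medians of 0.15 and 0.12, and nuclear retained RNA (4), with 0.13 and -0.23, likewise held no gene past the rule. The circadian clock and its output (17) held none either. Of its genes 10 lay below both controls and 2 above both, with medians of -0.19 and -0.25. Over all genes kept 36.8% lay below both and 37.3% above both. Of 36 dissociation and immediate early genes 4 passed upward (Ier5, Klf2, Klf4 and Hspb1), against 0.987% of all genes kept, with medians of 0.23 and -0.03. All 4 of these were endothelial-leaning. The list's 4 tubule-leaning genes had medians of -0.26 and -0.51.

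**Figure D4:**
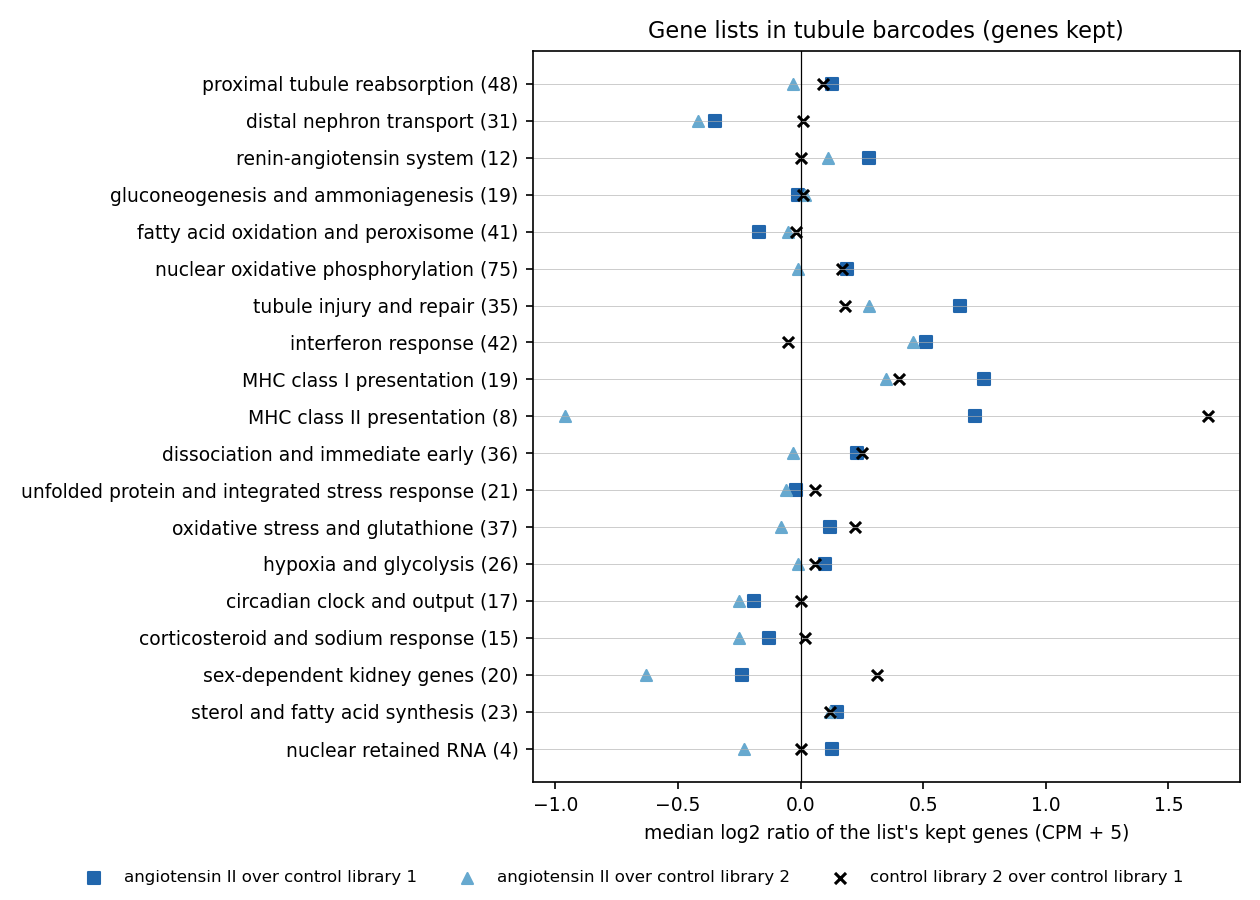
Median log2 ratio of CPM + 5 over the kept genes of each list (number in parentheses), for angiotensin II over either control library and for control library 2 over control library 1. The distal nephron list lies at -0.35 and -0.42 with 0.01 between the controls, whereas MHC class II presentation lies at 0.71 and -0.96 with 1.66 between the controls.

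The 41 genes were then read in subsets of the tubule barcodes. Among barcodes without any UMI of the 4 endothelial genes (825, 1798 and 1204 in the angiotensin II library and the controls) all 26 tubule-leaning genes lay above both controls and all 15 lower genes below both, and 23 and 12 passed the rule. Of all 101 higher genes, most of them endothelial-leaning, 85 passed there too. Fabp4 had log2 ratios of 4.25 and 3.21 in that subset, so its barcodes were not free of endothelial transcripts. Among barcodes with a distal UMI the counts past the rule were 21 and 13, again with all 41 on the same side. Among barcodes with no distal UMI (298, 87 and 189) 25 of 26 and 13 of 15 kept their side, and 11 and 2 passed. There Kynu stood at 108 CPM against 16 and 0 (28, 1 and 0 UMIs), and Fkbp5 at 26.9 CPM against 192 and 233 (7, 12 and 27 UMIs). The exceptions were Opcml, with 2, 1 and 2 UMIs, Wfdc15b, with 4, 0 and 8, and Mlst8, with 1, 0 and 0, so these rest on almost no counts. None of these subsets is independent of the whole set, since its barcodes are part of it. The 41 genes were chosen by their ratios over that whole set, so keeping their side was in part fixed in advance.

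**Figure D5:**
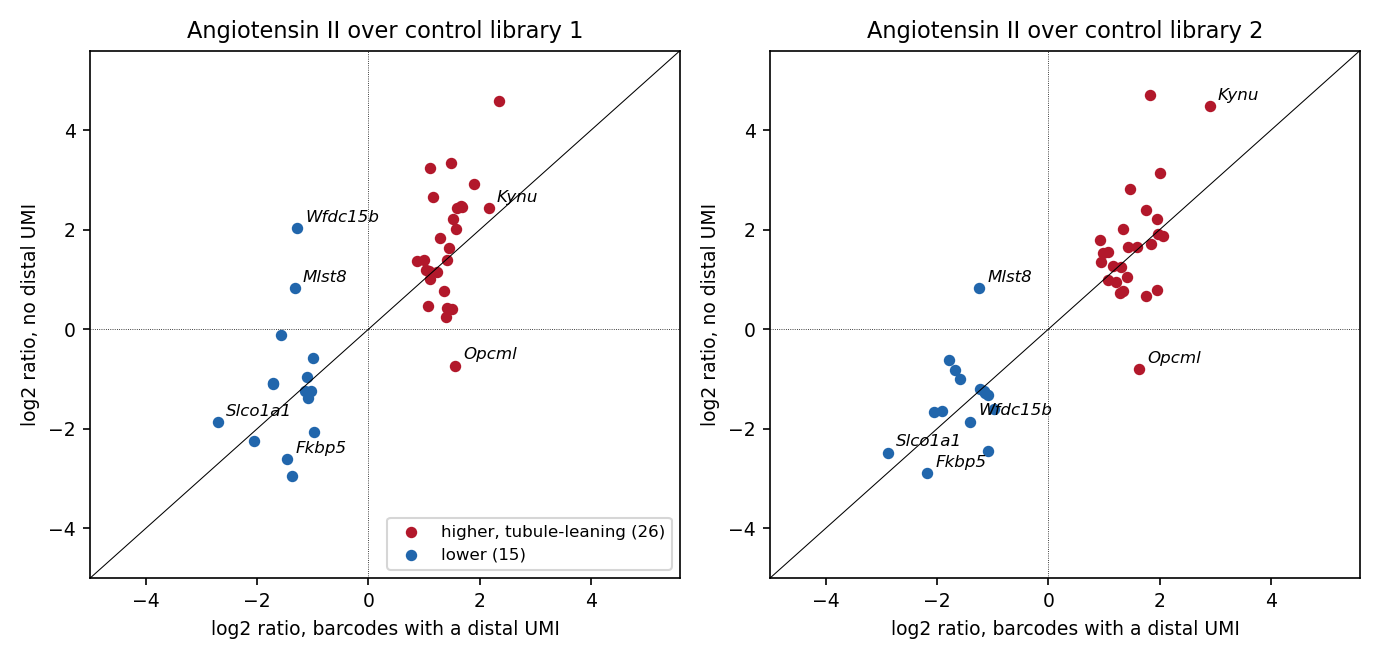
Log2 ratio of CPM + 5 in barcodes with a distal UMI (x axis) against that in barcodes with no distal UMI (y axis) for the 26 tubule-leaning higher and the 15 lower genes, over control library 1 (left) and control library 2 (right); the line marks equal ratios. All 41 genes keep their side on the x axis, and Opcml, Wfdc15b and Mlst8 do not on the y axis of at least 1 panel.

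The counts rested on how barcodes and genes were taken. With no endothelial limit on the barcodes 348 genes were higher and 31 lower, and in barcodes with no distal UMI the counts were 74 and 42. Thinning each barcode to 500 UMIs, which left out 71, 107 and 484 barcodes, gave 129 higher and 49 lower.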

How the data were processed

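Each of the 4 tables deposited by the authors holds whole-number UMI counts per gene and barcode, not normalized, from a droplet-based 3' kit, per the labels' protocols. Per the submitters' processing notes, the build was mm10 and the tools named were Seurat 4.1 and Cell Ranger 7.0.0, with no roles given. Table names were the link to the groups. One table was used for the angiotensin II library and 1 for the controls; the table joining both hypertension libraries served as an alternative. No column belonged to an unmapped sample.

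The counts of the tubule barcodes were summed per library and scaled to CPM over 11049 shared genes, of which 10973 matched a GRCm38 annotation. Ratios are log2 of CPM + 5, which understates low genes; intervals are exact conditional binomial (Clopper-Pearson, 95%) for ratios of CPM without the added 5, printed on the log2 scale, and exact Poisson for CPM. Genes below a mean of 10 CPM were left out. No doublet caller was run. No p-value was computed, since each group is 1 library. In each direction, over all genes and over tubule-leaning ones, the 15 genes with the largest smaller ratio were named, besides list genes past the rule and up to 4 abundant genes of lists with none; the remaining tubule-leaning genes and the list genes given that did not pass were named after their values were seen. Barcodes, members and gene lists were chosen with earlier results of these data known. Alternatives used other pseudocounts, level limits, scalings (TMM from edgeR 4.0.16 and median of ratios), barcode subsets and tables. Python 3.11.15 with scipy 1.17.1 was used.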

Additional observations from a re-analysis of the deposited data

How the results depend on the processing

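No paired analysis was possible because each group is 1 library of pooled kidneys. With 1 library per group no library could be left out within a group; the results over control library 1 alone and control library 2 alone, chosen after seeing the data, were 229 and 200 genes higher and 35 and 87 lower, against 101 and 15 over both.

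Higher genes numbered 50 at a pseudocount of 20 CPM, 35 at a mean of 50 CPM, 348 with no endothelial limit, 162 over the summed controls, 368 at 1.5-fold and 26 among tubule-leaning genes. Under the remaining alternatives the count lay within 1.5 times of 101. Lower genes numbered 30 and 7 at pseudocounts of 1 and 20 CPM, 31 both without any endothelial UMI and with no endothelial limit, 42 in barcodes with no distal UMI, 49 after thinning, 27 by the mean over barcodes, 26 in the joined hypertension table, 37 over the summed controls and 190 at 1.5-fold. Genes that differed between the controls, 117 in all, numbered 211 and 39 at pseudocounts of 1 and 20 CPM, 58 at a mean of 50 CPM, 178 with no endothelial limit, 284 in barcodes with no distal UMI, 275 after thinning, 669 at 1.5-fold and 47 among tubule-leaning genes. Tubule barcodes with no distal UMI numbered 574 of 4495. The cause of these shifts was not tested. TMM and median-of-ratios scaling gave 98 and 100 higher and 15 and 15 lower genes.

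Of 2072 ratios of named genes under these alternatives 1783 lay inside the main counting interval, which is that of the ratio without the added 5 CPM. Another 285 lay outside it, but not all of these moved. With no limit on mean CPM, Sox18 over control library 1 kept its main value of 2.68 and still lay outside. The remaining 4 reversed, all in barcodes with no distal UMI: Wfdc15b over control library 1 (2.03), Opcml over control libraries 1 and 2 (-0.73 and -0.81) and H2-Q4 over control library 1 (-0.21). Mlst8 fell below the mean of 10 CPM there, so its ratios are not among these, although its 1, 0 and 0 UMIs put it above both controls. Depth limits the lower genes, of which 3 rest on fewer than 10 UMIs in the angiotensin II library, and 484 of 1287 barcodes of control library 2 hold under 500 UMIs.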

Other observations

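MHC class II genes separated the control libraries from each other. H2-Eb1 stood at 33.6 CPM in tubule barcodes of control library 1 and 238 in control library 2, against 58.9 in the angiotensin II library and 51.3 in the salt-sensitive one. H2-Aa stood at 30.9 and 180 CPM in the controls and Cd74, the invariant chain, at 99.7 and 424. The list's median was 1.66 (log2) between the controls. C1qa and Fcer1g, genes of macrophages, stood at 9.10 and 59.8 and at 18.2 and 61.9 CPM in the same libraries, while Csf1r, the receptor that defines them, stood at 62.9 and 71.2 CPM. Over control library 1 the angiotensin II library would thus be read as higher in MHC class II genes and over control library 2 as lower, with none past the rule over both.

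Itgb6, an integrin subunit of epithelium, was nearer to control library 2, with 366 and 833 CPM in the controls and 699 CPM in the angiotensin II library. The Y-linked genes Ddx3y, Eif2s3y, Kdm5d and Uty were found in tubule barcodes of all 4 libraries, at 60.9 to 156 CPM in the angiotensin II library. None of them lay above both controls. Xist was not among the genes analysed here, and the sex make-up of the pools was not tested.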
